A study of Saccharomyces cerevisiae with 9 samples.

Results

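The nuclear transfer RNA (tRNA) genes of budding yeast were followed through a gradual and a sudden heating to 50 °C. They were taken by name, as every row of the deposited tables whose identifier gives a one-letter amino acid and an anticodon in brackets without the mitochondrial mark, which gave 274 genes of the 7126 rows. The genes of 20 amino acids were present, and copies that share an amino acid and an anticodon were summed into 41 anticodon groups of 1 to 16 copies. Copies of the same sequence can share reads, and how such reads were assigned is not known. In names such as tK(UUU)K, the first letter is the amino acid, the bracket holds the anticodon, and the last letter stands for the chromosome, with a number where several copies lie on it.

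RNA was sequenced from the haploid laboratory strain BY4742 (MATα his3Δ1 leu2Δ0 lys2Δ0 ura3Δ0), where a flask of YPD was inoculated from a single colony and grown for 48 h at 25 °C into stationary phase. Heat ramp cells were warmed to 50 °C at 0.5 °C per min and heat shock cells at 50 °C per min, and both were held there for 30 min and quickly returned to 25 °C. Control cells came from the same cultures without heating. There were 3 libraries in each group, 1 from each of 3 independent cultures, and all carried the strain's auxotrophic deletions. The question asked of the tRNA genes was how their reads differed between the heated cells and the control, and between the gradual and the sudden heating.

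Between 22579312 and 27233289 reads were counted in a library. LEU2, URA3 and LYS2, which the strain lacks, were listed at 0 in all 9 libraries. The α-factor gene MFALPHA1 and the a-factor receptor gene STE3, both specific to MATα cells, were present in every library, with control means of 13843 and 3833 normalized counts. The genes MFA1, MFA2 and STE2, which are specific to MATa cells, were also present, with control means of 242, 766 and 1358 normalized counts, which goes against the label, and their part in the tRNA values was not tested.

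RNA polymerase III transcribes tRNA genes from promoter elements that lie inside the gene, with TFIIIC binding these elements and recruiting TFIIIB. The precursor is trimmed at both ends, spliced where the gene has an intron, given a CCA end that the gene does not encode, modified at many bases and charged with its amino acid by an aminoacyl-tRNA synthetase. In yeast the protein Maf1 represses RNA polymerase III when nutrients run out or cells are stressed, and endonucleases can cut mature tRNAs in their anticodon loop.

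The libraries were made from RNA bound to oligo(dT), and tRNAs do not carry a poly(A) tail when mature, so the reads describe the tRNA molecules or precursors that entered such libraries. A count cannot tell a precursor, a mature tRNA, a fragment or a tailed molecule apart. In bulk RNA, fewer cells giving a transcript and less of it in each cell cannot be told apart either.

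The mature sequences of the groups on which the comparisons turn are given first, because their copies are nearly always identical and this decides what a read can be assigned to. They were read from the R64 assembly as the gene's strand with the intron removed, the capitals mark the anticodon, and T stands for U.
tY(GUA), 8 of 8 genes, for example chrIV:946312-946400, plus strand: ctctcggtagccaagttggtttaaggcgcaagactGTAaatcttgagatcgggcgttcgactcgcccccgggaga
tE(UUC), 13 of 14 genes, for example chrII:645167-645238, plus strand: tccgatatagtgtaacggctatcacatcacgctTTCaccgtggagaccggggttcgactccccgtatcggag
tK(UUU), 7 of 7 genes, for example chrIV:359577-359672, plus strand: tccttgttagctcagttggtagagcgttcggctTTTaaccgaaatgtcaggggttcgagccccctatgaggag
tN(GUU), 10 of 10 genes, for example chrIII:127716-127789, plus strand: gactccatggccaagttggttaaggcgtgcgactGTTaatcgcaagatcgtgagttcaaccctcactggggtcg
tL(UAG), 3 of 3 genes, for example chrX:617919-618019, plus strand: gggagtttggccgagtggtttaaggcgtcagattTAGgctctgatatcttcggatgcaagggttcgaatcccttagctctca
tV(UAC), 2 of 2 genes, for example chrII:326792-326865, minus strand: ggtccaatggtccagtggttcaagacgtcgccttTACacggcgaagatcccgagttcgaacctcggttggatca
In 28 of the 41 anticodon groups, all copies had 1 mature sequence, a count that includes the groups with a single gene. The annotation held 275 nuclear tRNA genes, of which 274 had an anticodon that could be read and matched to the rows by amino acid, anticodon and chromosome, and 151 rows could be placed at a single gene. No other annotated gene overlapped a placed tRNA gene.

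Nuclear tRNA genes took a small share of the reads, and that share was higher in both heated groups than in the control. It was 0.0676, 0.0603 and 0.0629% in the heat ramp libraries, 0.0938, 0.0549 and 0.0868% in the heat shock libraries, and 0.00678, 0.007 and 0.00711% in the control libraries. These shares correspond to 14208 to 15631 reads in a heat ramp library, 12932 to 22381 in a heat shock library and 1821 to 1914 in a control library. All 6 heated libraries lay above all 3 control libraries. The means were 0.0636% ± 0.00371 after the ramp, 0.0785% ± 0.0207 after the shock and 0.00696% ± 0.000167 in the control (SD, n = 3 each). The 95% Wilson interval of the lowest heated library ran from 0.054 to 0.0559%, and that of the highest control library from 0.0068 to 0.00743%. An exact two-sided permutation test of each heated group against the control (n = 3 each) gave p = 0.1, the smallest that 3 against 3 allows. Intervals here cover counting error only, since reads amplified by PCR are not independent molecules.

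The same held in normalized counts, which are reads divided by a size factor that DESeq2 gives each library. All nuclear tRNA genes together had 24388, 20640 and 23279 normalized counts after the ramp, 19976, 11446 and 18970 after the shock, and 1288, 1302 and 1365 in the control. Heat shock replicate 2 was the lowest of the heated libraries. The mean was 17.3 times the control after the ramp and 12.7 times the control after the shock. In limma fitted to log2(normalized count + 1) of all tested rows of the tables, the summed tRNA genes had a log2 fold change of 4.11 (SE 0.181, adjusted p = 3.34e-10) for the ramp against control and 3.63 (SE 0.181, adjusted p = 2.63e-08) for the shock against control. Both comparisons share the 3 control libraries. When libraries were scaled by total counts, the log2 fold change was 3.19 for the ramp and 3.46 for the shock, while the median of all rows moved to -0.97 for the ramp (-0.05 with the size factors) and to -0.16 for the shock (0.02 with the size factors).

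Small nucleolar RNAs (snoRNAs), small nuclear RNAs (snRNAs) and nuclear ribosomal RNAs (rRNAs), which are not messengers either, also had larger mean shares of the reads in both heated groups, whereas mitochondrial rRNA did not after the ramp. The 76 snoRNA rows held 0.28% ± 0.0163 after the ramp, 0.121% ± 0.0086 after the shock and 0.0511% ± 0.00195 in the control (SD, n = 3 each). The 6 snRNA rows held 0.164% ± 0.0259 after the ramp, 0.0449% ± 0.00916 after the shock and 0.00564% ± 0.00053 in the control. The 14 nuclear rRNA rows held 0.00315% ± 0.000964 after the ramp, 0.00274% ± 0.000403 after the shock and 0.00146% ± 0.000146 in the control. The 2 mitochondrial rRNA rows held 0.0154% ± 0.00563 after the ramp, 0.0232% ± 0.00234 after the shock and 0.0155% ± 0.00367 in the control. The single row of a tRNA of undetermined specificity had a mean share of 0.981 times the control after the ramp and 2.03 times after the shock. Per group mean, the ramp share was 5.49 times the control for snoRNAs, 29.0 times for snRNAs and 9.14 times for tRNAs, whereas the shock share was 2.36 times the control for snoRNAs, 7.96 times for snRNAs and 11.3 times for tRNAs. Of these 3 classes, only nuclear tRNA had a higher mean share after the shock than after the ramp. Its libraries overlapped, with heat shock replicate 2 at 0.0549% below the lowest ramp library at 0.0603%. Mitochondrial rRNA and the row of undetermined specificity also had a higher mean share after the shock than after the ramp. The part that carry-over of such RNAs through the oligo(dT) selection has in the tRNA values was not tested.

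**Figure D1:**
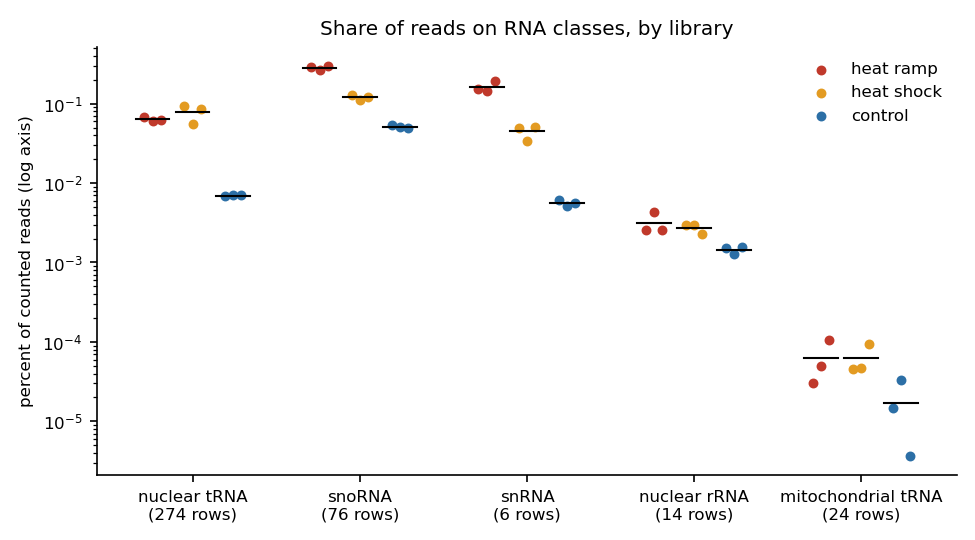
Percent of counted reads (log axis) on 5 RNA classes, with 1 point per library for heat ramp, heat shock and control and a line at the mean of 3 libraries. Nuclear tRNA lies between 0.0549 and 0.0938% in the heated libraries and near 0.007% in the control libraries, and snoRNA and snRNA are also higher in both heated groups, most of all after the ramp.

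After the heat ramp, reads rose for every anticodon group that could be tested. Of 41 groups, 40 passed the filter of a mean of at least 10 normalized counts over all 9 libraries, and all 40 were higher after the ramp at an adjusted p under 0.05, with none lower. Groups with few control reads, such as tR(CCU) and tT(UGU), passed this filter only through their heated libraries. None was lower at an unadjusted p under 0.05 either, nor in edgeR or DESeq2. Among all 6671 rows tested by limma, 37.4% were higher in this comparison. In normalized counts, the lowest ramp library lay above the highest control library in 41 of 41 groups, against 38.5% of all rows tested. For the untested group, tQ(CUG), this rests on 3 reads in heat ramp replicate 2 against 4 in control replicate 3. The median log2 fold change of the groups was 3.69, with a range of 1.25 to 5.93, and the median of all rows was -0.05.

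The tyrosine group tY(GUA) had the highest log2 fold change after the ramp. It held 975, 1228 and 1103 normalized counts in the heat ramp libraries, 1095, 614 and 1032 in the heat shock libraries, and 14.1, 15.0 and 22.8 in the control libraries. Its control values rest on 20, 22 and 32 reads. The log2 fold change was 5.93 for the ramp (SE 0.231, adjusted p = 1.06e-10) and 5.63 for the shock (SE 0.231, adjusted p = 2.05e-09), so its 8 genes, each with an intron of 14 bases next to the anticodon, were far above the control in both treatments.

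The groups tR(UCU) for arginine, tE(UUC) for glutamate, tT(AGU) for threonine and tK(UUU) for lysine followed, with log2 fold changes after the ramp of 5.71, 5.68, 5.59 and 5.37. tE(UUC) is the major glutamate tRNA and had 1818, 1378 and 1555 normalized counts after the ramp, 1970, 1120 and 2857 after the shock, and 29.0, 31.4 and 28.5 in the control. tT(AGU) had 1181, 890 and 1134 after the ramp, 619, 452 and 524 after the shock, and 21.2, 21.2 and 20.7 in the control. tR(UCU), whose 11 genes decode AGA, a frequent arginine codon in yeast, had 1540, 1425 and 1086 after the ramp, 939, 473 and 1223 after the shock, and 22.6, 23.2 and 27.8 in the control. In these 3 groups the heated libraries did not overlap the control libraries, and only tE(UUC) had a higher mean after the shock than after the ramp.

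At the other end stood the groups whose reads rose least. tV(UAC), a valine tRNA with 2 genes, had 140, 133 and 118 normalized counts after the ramp, 130, 127 and 197 after the shock, and 47.4, 57.4 and 58.5 in the control. Its log2 fold change was 1.25 for the ramp (SE 0.213, adjusted p = 9.96e-05) and 1.44 for the shock (SE 0.213, adjusted p = 0.000103). Under total count scaling, the ramp value was 0.34 (adjusted p = 0.153), which no longer passed the threshold. tS(GCU) for serine had a ramp log2 fold change of 1.51, tL(GAG) for leucine 1.53, tP(AGG) for proline 2.12 and tQ(UUG) for glutamine 2.36. tV(UAC) was the only anticodon group that lost its ramp call under the total count scaling among the 39 tested there.

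After the heat shock, 39 of the 40 tested groups were higher than the control in limma and none was lower, also at an unadjusted p under 0.05, against 28.1% of all rows tested that were higher. As for the ramp, groups with few control reads passed the filter only through their heated libraries, which favours calls of higher. The groups of libraries did not overlap in 40 of 41, against 33.1% of all rows tested. The median log2 fold change was 2.86, with a range of 0.97 to 5.92, and the median of all rows was 0.02. The exception was tE(CUC), the minor glutamate tRNA, with 7.14, 0.885 and 7.19 normalized counts after the shock and 0.707, 1.37 and 1.43 in the control, where its log2 fold change of 1.23 had an adjusted p of 0.0975, whereas edgeR and DESeq2 each called all 40. Only 1, 2 and 2 reads stood behind the control values.

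tE(UUC) came first after the shock with a log2 fold change of 5.92 (SE 0.252, adjusted p = 2.3e-09), followed by tY(GUA), tK(UUU) at 5.06, tS(CGA) at 5.05 and tR(UCU) next to it. tS(CGA), a serine tRNA with 1 gene and an intron of 19 bases, had 150, 92.5 and 134 normalized counts after the ramp, 234, 141 and 217 after the shock, and 6.37, 2.05 and 7.85 in the control. Its control values rest on 9, 3 and 11 reads. The lowest called groups after the shock were tS(UGA) at 1.74, tQ(UUG) at 1.61, tS(GCU) at 1.52, tV(UAC) and tL(UAG) at 0.97.

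**Figure D2:**
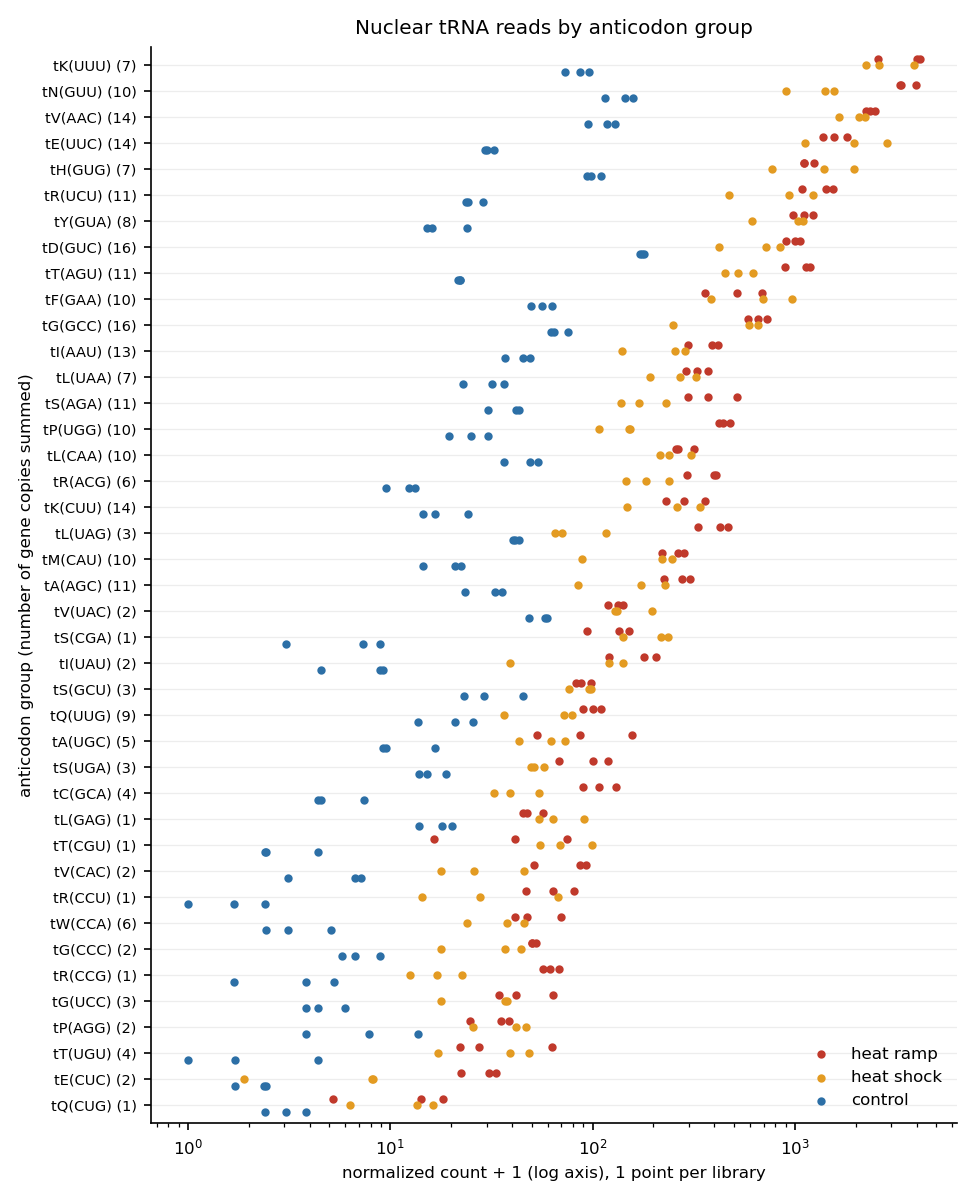
Normalized count + 1 (log axis) of each of the 41 anticodon groups in the 9 libraries, with 3 points each for heat ramp, heat shock and control, ordered by the mean over all libraries and with the number of summed gene copies in brackets. The control points lie left of the heat ramp points in all 41 groups, and tV(UAC), tS(GCU) and tL(GAG) have the narrowest gaps.

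The lysine group tK(UUU) had the highest mean count, and the 5 highest groups were completed by tN(GUU), tV(AAC), tE(UUC) and tH(GUG). tK(UUU) had 4000, 2577 and 4172 normalized counts after the ramp, 3880, 2240 and 2604 after the shock, and 72.1, 86.0 and 94.9 in the control. The mix of tRNAs within the tRNA reads differed between groups of libraries. tK(UUU) made up 15.6% ± 2.8 of tRNA counts after the ramp, 17.6% ± 3.3 after the shock and 6.39% ± 0.70 in the control (SD, n = 3 each). tE(UUC) made up 6.94% ± 0.45 after the ramp, 11.6% ± 3.0 after the shock and 2.25% ± 0.16 in the control. tD(GUC) for aspartate, the most abundant group in the control, made up 4.37% ± 0.66 after the ramp, 3.91% ± 0.29 after the shock and 13.2% ± 0.74 in the control, although its own counts were higher in both heated groups.

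The 5 groups of lowest mean count were tQ(CUG), tE(CUC), tT(UGU), tP(AGG) and tG(UCC). tQ(CUG), a glutamine tRNA with 1 gene, was not tested and had 17.2, 4.20 and 13.1 normalized counts after the ramp, 15.2, 5.31 and 12.6 after the shock, and 1.41, 2.05 and 2.85 in the control. A count of 3 reads, taken as the limit of detection, equals 4.20 to 4.92 normalized counts in a ramp library, 2.66 to 2.69 in a shock library and 2.05 to 2.14 in a control library. The value of this group in heat ramp replicate 2 is at that limit, and its control values lie around it. The same applied to tR(CCU) with 2, 1 and 0 control reads and to tT(UGU) with 0, 5 and 1, for which no fold is given. Control values also lay around the limit for tE(CUC), with 1, 2 and 2 reads, and tT(CGU), with 2, 5 and 2. So did those of tR(CCG), with 4, 1 and 6, and tW(CCA), with 3, 6 and 2. tR(CCU) had 62.4, 79.9 and 45.9 normalized counts after the ramp and 26.8, 13.3 and 66.5 after the shock. Besides tQ(CUG), tR(CCU) and tS(CGA), the groups with a single gene were tR(CCG), with 67.1, 60.3 and 55.7 after the ramp, 16.1, 11.5 and 21.6 after the shock and 2.83, 0.683 and 4.28 in the control, tT(CGU) and tL(GAG). tT(CGU), a rare threonine tRNA, had 40.6, 15.4 and 73.7 after the ramp, 98.2, 54.0 and 68.3 after the shock, and 1.41, 3.41 and 1.43 in the control. tL(GAG) had 56.2, 46.2 and 44.2 after the ramp, 62.5, 53.1 and 89.8 after the shock, and 19.1, 17.1 and 12.8 in the control, and both lay above the control in all heated libraries.

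Summed by amino acid, all 20 groups were higher after the ramp than in the control and all 20 were higher after the shock, against 37.2% and 27.9% of all rows tested with these sums. Cysteine, with 5, 5 and 9 control reads, and tryptophan, with 3, 6 and 2, passed the filter only through their heated libraries, which favours calls of higher. Tyrosine led after the ramp at a log2 fold change of 5.93, followed by glutamate at 5.66, arginine at 5.53, threonine at 5.49 and lysine at 5.21. Glutamine was lowest at 2.36, with 126, 92.5 and 113 normalized counts after the ramp, 93.7, 40.7 and 83.5 after the shock, and 14.1, 26.6 and 22.8 in the control. After the shock the values ran between 1.69 for glutamine and 5.86 for glutamate. Each amino acid was therefore represented by more normalized counts after heating, and neighbours in this order often differed by less than their standard errors, which lay between 0.148 and 0.399.

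The methionine tRNAs serve separate tasks, since the initiator starts translation and the elongator reads internal methionine codons. The annotation holds 5 genes with the mature sequence of the initiator (72 bases) and 5 with that of the elongator (73 bases). Of the 10 rows, 3 lie on chromosomes that carry only initiator genes, 2 on chromosomes that carry only elongator genes, and 5 could not be resolved. The initiator rows had 42.1, 36.4 and 59.0 normalized counts after the ramp, 49.1, 33.6 and 49.4 after the shock, and 7.07, 8.19 and 10.7 in the control. The elongator rows had 25.0, 26.6 and 29.5 after the ramp, 28.6, 12.4 and 30.5 after the shock, and 1.41, 2.73 and 2.14 in the control. Both kinds were above the control in every heated library. The elongator control values lie around the limit of 3 reads, which is 2.05 to 2.14 normalized counts in a control library. In limma, the summed group tM(CAU) had a log2 fold change of 3.75 for the ramp (SE 0.332, adjusted p = 1.71e-07) and 3.17 for the shock (SE 0.332, adjusted p = 7.86e-06).

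Introns of tRNA genes are removed by a splicing endonuclease and a ligase, and 60 genes in 10 anticodon groups carry one. The genes of tK(UUU) and tY(GUA) are printed with the intron in capitals, because these groups were among those with the highest log2 fold changes and a read over the intron would mark an unspliced precursor.
tK(UUU), 6 genes with this sequence, chrIV:359577-359672, plus strand: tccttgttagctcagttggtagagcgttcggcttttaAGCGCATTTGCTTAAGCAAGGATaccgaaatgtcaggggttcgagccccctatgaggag
tY(GUA), 5 genes with this sequence, chrXIII:168795-168883, plus strand: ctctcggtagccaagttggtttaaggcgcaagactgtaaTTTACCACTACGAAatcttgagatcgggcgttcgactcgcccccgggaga
tY(GUA), 3 genes with this sequence, chrXV:288192-288280, plus strand: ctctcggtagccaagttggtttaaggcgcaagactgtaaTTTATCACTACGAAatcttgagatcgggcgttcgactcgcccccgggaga
Besides lysine tK(UUU) and tyrosine tY(GUA), the groups with an intron are phenylalanine tF(GAA), isoleucine tI(UAU), leucine tL(CAA) and tL(UAG), proline tP(UGG), serine tS(CGA) and tS(GCU), and tryptophan tW(CCA). Their summed share of tRNA counts was 29.2, 27.9 and 31.9% after the ramp, 34.9, 34.3 and 27.9% after the shock, and 23.7, 24.2 and 23.4% in the control, so each heated library lay above each control library. This rested on tK(UUU), which alone made up 16.4, 12.5 and 17.9% after the ramp. It made up 19.4, 19.6 and 13.7% after the shock, and 5.60, 6.61 and 6.95% in the control. Without tK(UUU), the summed share was lower in each heated library than in each control library. The 10 groups with an intron had a median log2 fold change of 4.06 after the ramp, against 3.58 for the groups without one, and of 3.43 after the shock, against 2.71. The ranges of both kinds overlapped, from 1.51 to 5.93 with an intron and from 1.25 to 5.71 without one after the ramp. tW(CCA), the tryptophan tRNA, had 40.6, 46.2 and 68.8 normalized counts after the ramp, 44.6, 23.0 and 36.8 after the shock, and 2.12, 4.10 and 1.43 in the control. tI(UAU), an isoleucine tRNA with an intron of 60 bases, had 179, 206 and 120 after the ramp, 141, 38.1 and 120 after the shock, and 3.54, 8.19 and 7.85 in the control. tF(GAA) and tL(CAA) were at log2 fold changes of 3.17 and 2.61 after the ramp, below the median of the groups without an intron. The counts do not separate reads over introns from reads over exons.

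The order of levels followed gene number in every group of libraries. Across the 41 groups, the number of copies and the mean count had a Spearman's rho of 0.756 after the ramp, 0.713 after the shock and 0.694 in the control. With the log2 fold change of the 40 tested groups, the rho was 0.136 for the ramp and 0.186 for the shock. The longest run of A in the gene, between 1 and 6 bases, had a rho of 0.03 and 0.079 with these log2 fold changes. With runs this short, the rho is no test of binding by oligo(dT). These values are across groups that share libraries, and they are given as a description.

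Between the heat ramp and the heat shock, tRNA groups were called higher about as often as rows in general, and the direction depended on the scaling. All tRNA genes summed had a mean of 22769 ± 1925 normalized counts after the ramp and 16797 ± 4662 after the shock (SD, n = 3 each), a ratio of 1.36, and the log2 fold change was 0.48 (SE 0.181, adjusted p = 0.028). Scaled by total counts, it was -0.27 (adjusted p = 0.165), where the median of all rows was -0.72 (0.02 with the size factors). Without heat shock replicate 2, the low library named above, it was 0.22 (adjusted p = 0.145). Of the 40 tested groups, 15 were higher after the ramp and none was lower at an adjusted p under 0.05, against 36.3% of all rows that were higher and 37% that were lower, and none was lower at an unadjusted p under 0.05. The count of higher groups was thus near the share of all rows. edgeR and DESeq2 on the recovered reads each called 1 group lower, tS(CGA). With the culture as a replicate block 1 group was lower, tS(CGA), at a log2 fold change of -0.64 (adjusted p = 0.0458). With total count scaling 4 groups were higher and 10 were lower. By amino acid, 9 were higher and none was lower with the size factors, against 36.3% and 37.2% of all rows tested with these sums, and 2 were higher and 4 lower with the total counts.

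The 4 groups that were higher after the ramp under both scalings were tL(UAG), tR(CCG), tP(UGG) and tN(GUU). tN(GUU), the asparagine tRNA, had 3957, 3354 and 3308 normalized counts after the ramp, 1415, 902 and 1558 after the shock, and 157, 114 and 144 in the control. Its log2 fold change of ramp against shock was 1.49 (SE 0.191, adjusted p = 7.36e-06), and 0.74 with total counts (adjusted p = 0.00172). tL(UAG), a leucine tRNA, had 424, 465 and 331 after the ramp, 64.3, 69.9 and 116 after the shock, and 40.3, 39.6 and 42.1 in the control, with a log2 fold change of 2.31 for ramp against shock (SE 0.233, adjusted p = 6.57e-07). Its shock libraries lay little above the control, and its ramp libraries far above both. tP(UGG), a proline tRNA, had 477, 439 and 423 after the ramp, 153, 107 and 150 after the shock, and 24.1, 29.4 and 18.5 in the control, with a log2 fold change of 1.72 for ramp against shock (SE 0.214, adjusted p = 5.66e-06). tE(CUC) had the highest value of all, 2.50 (SE 0.603, adjusted p = 0.00192), from 29.6, 32.2 and 21.3 normalized counts after the ramp and 7.14, 0.885 and 7.19 after the shock, and under total count scaling it fell below the filter.

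The lowest called groups in this comparison were tA(AGC) at 0.84, tS(UGA) at 0.83, tI(AAU) at 0.75, tR(UCU) at 0.71 and tD(GUC) at 0.63, and none of them passed the threshold with total counts. The 10 groups that were lower after the ramp with total counts included tE(UUC) at -0.98, tF(GAA) at -1.08, tH(GUG) at -0.90 and tV(AAC) at -0.49. tH(GUG), the histidine tRNA, had 1114, 1106 and 1237 normalized counts after the ramp, 1968, 767 and 1393 after the shock, and 109, 92.9 and 97.0 in the control. Heat shock replicate 2 lay below the ramp libraries here while the other shock libraries lay above them. Without that library 11 groups were higher and 3 were lower, namely tE(UUC), tF(GAA) and tH(GUG).

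**Figure D3:**
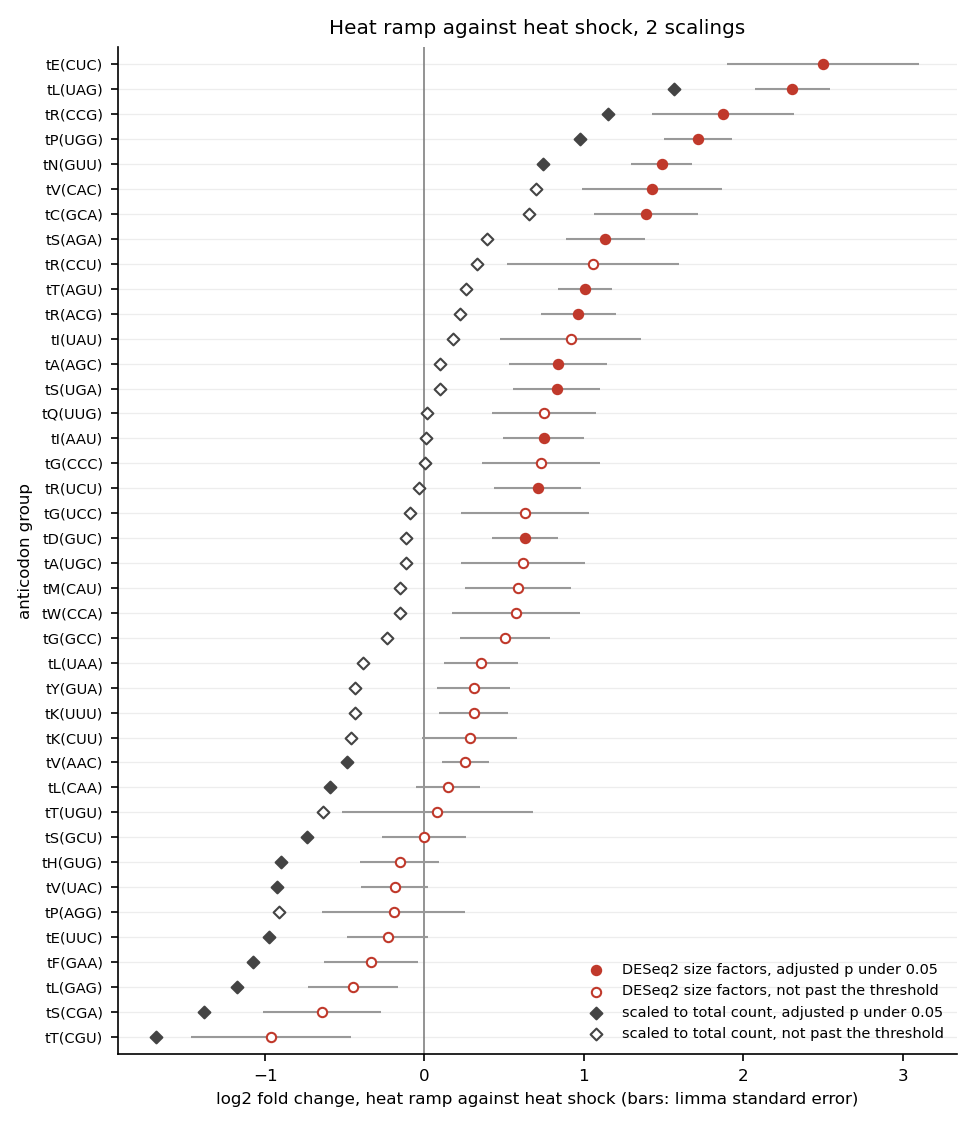
Log2 fold change (heat ramp over heat shock) for each of the 40 tested anticodon groups, with DESeq2 size factors (circles, bars for the limma standard error) and with total count scaling (diamonds, 39 groups, since tE(CUC) fell below the filter); filled symbols have an adjusted p under 0.05. 15 circles to the right of 0 are filled, and with total counts 4 diamonds on the right and 10 on the left are.

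Single copies were also looked at, with the reserve that copies of 1 sequence share reads and that their rows depend on how such reads were assigned. Of 274 copies, 216 passed the filter, 214 were higher after the ramp and 211 after the shock, and limma and edgeR called none lower than the control in either comparison, nor was one lower at an unadjusted p under 0.05. Of all rows tested with single copies, 39% were higher after the ramp and 29.9% after the shock. The filter takes the mean over all 9 libraries, and the median copy had 38.4 normalized counts after the ramp, 24.3 after the shock and 2.33 in the control. Many copies thus passed only through their heated libraries, and copies low in all groups dropped out, which favours calls of higher. The copies that did not pass the test after the ramp were tF(GAA)N, with 15.6, 4.20 and 18.0 normalized counts after the ramp against 4.95, 7.51 and 2.85 in the control, and tS(GCU)L, with 10.9, 16.8 and 4.92 after the ramp against 21.2, 10.2 and 4.99 in the control. The ramp libraries of both overlapped the control libraries. No read at all was listed for 5 copies, namely tE(CUC)D, tK(CUU)D2, tP(UGG)O1, tT(UGU)H and tT(UGU)P. The 27 copies with the highest counts held 47.9% of tRNA counts after the ramp, 50.9% after the shock and 48.0% in the control.

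Copies with 1 mature sequence did not have equal counts. Among the 10 asparagine genes, tN(GUU)K on chromosome XI had 1292, 921 and 862 normalized counts after the ramp, 386, 293 and 780 after the shock, and 9.19, 6.15 and 9.99 in the control. tN(GUU)P on chromosome XVI had 585, 492 and 565 after the ramp, 121, 93.8 and 102 after the shock, and 82.0, 57.4 and 60.6 in the control, where it held 48.2% of the reads of the group. All 10 copies were called higher in both heated groups, but tN(GUU)P moved by a log2 fold change of 3.03 after the ramp and 0.67 after the shock, against 6.76 and 5.59 for tN(GUU)K. Neither had another annotated gene within 100 bases. Entries for long terminal repeats and Ty elements did not count as genes here, and 66 of the annotated tRNA genes had one within 100 bases.

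In tK(UUU), the 7 copies ranged between means of 257 for tK(UUU)G2 and 931 for tK(UUU)K after the ramp, 103 and 775 after the shock for the same copies, and 6.29 for tK(UUU)O and 17.0 for tK(UUU)D in the control. tK(UUU)G2 was the only one of the 7 that was called between ramp and shock, at a log2 fold change of 1.35 (adjusted p = 0.000585). In tL(UAG), tL(UAG)L1 held 82.7% of the counts after the ramp, 75% after the shock and 81.6% in the control, and in tV(UAC), tV(UAC)D held 92.5% after the ramp, 90.4% after the shock and 92.7% in the control. A single row thus set the value of each of these groups. For tL(UAG)L1 the annotation leaves more than 1 candidate gene on chromosome XII. Of the copies compared between ramp and shock, 57 were higher after the ramp and 2 were lower, tH(GUG)E2 and tY(GUA)D, against 35.9% and 36.1% of all rows, so both counts were smaller shares of the 216 copies than of all rows. With total counts, 17 were higher and 38 lower.

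**Figure D4:**
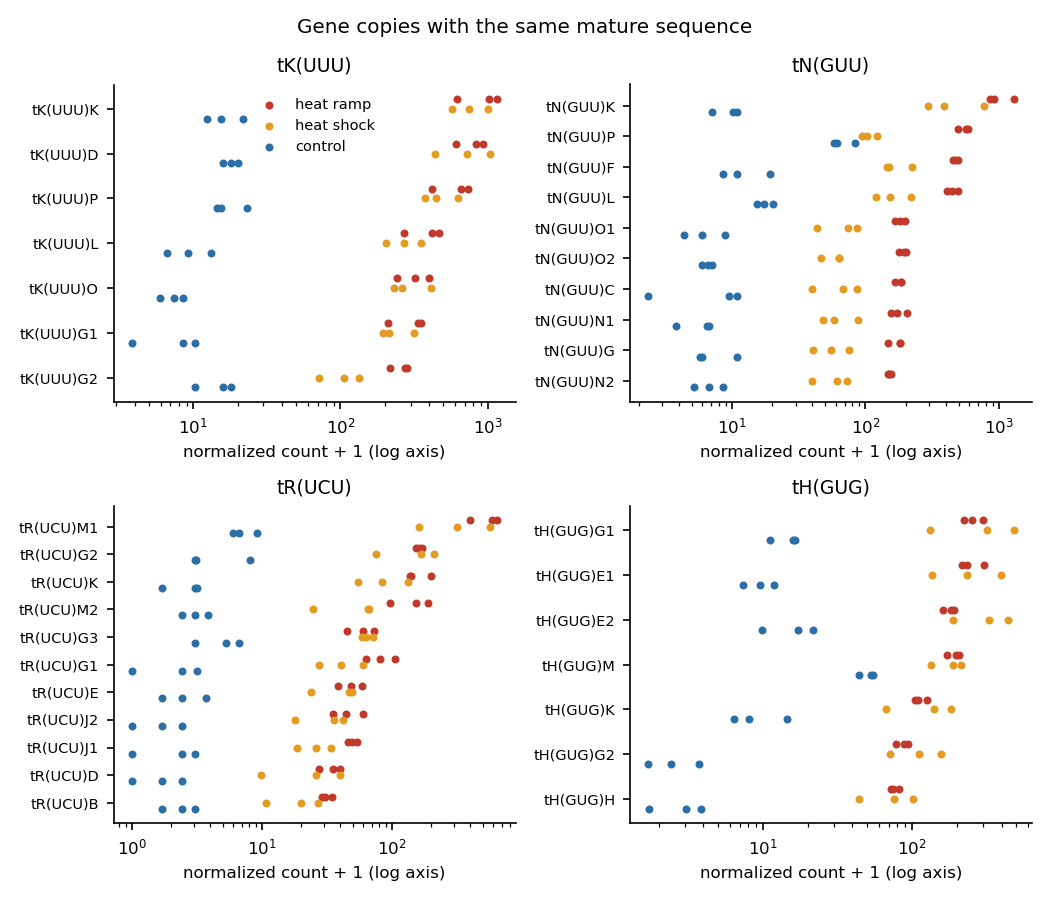
Normalized count + 1 (log axis) of the gene copies of tK(UUU), tN(GUU), tR(UCU) and tH(GUG) in the 9 libraries, with 3 points each for heat ramp, heat shock and control; all copies within a panel have the same mature sequence. tN(GUU)P and tH(GUG)M have control points far above those of the other copies, at 57.4 to 82.0 and 43.5 to 53.8 normalized counts.

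The messenger RNAs of the enzymes that charge tRNAs were mostly lower after the ramp, while the tRNA reads were higher. Of the 22 genes on the list of cytosolic aminoacyl-tRNA synthetases and their cofactor ARC1, 21 were lower after the ramp and none was higher, with a median log2 fold change of -1.10 beside -0.05 for all rows and against 40.5% of all rows that were lower. After the shock 7 were higher and 2 were lower, with a median of 0.24 beside 0.02 for all rows, of which 28.1% were higher and 28.2% lower. Under total count scaling 3 were higher and 2 lower after the shock, and DESeq2 called 12 higher and 2 lower. KRS1, the lysyl-tRNA synthetase, had 4072, 5023 and 5246 normalized counts after the ramp, 16312, 21659 and 18014 after the shock, and 17641, 19226 and 20694 in the control. Its log2 fold change was -2.01 after the ramp, when the lysine tRNAs were at 5.21. No synthetase was called higher after the ramp by edgeR or DESeq2 either. ALA1 for alanine at -1.99 and CRS1 for cysteine at -1.91 were next. DPS1, for aspartate, was the synthetase without a call after the ramp with the size factors, with 3899, 3356 and 4000 normalized counts against 3294, 3595 and 3646 in the control. With total counts DPS1 was called lower after the ramp in limma, at -0.82 (adjusted p = 1.18e-05), and all 22 of the list were lower.

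After the shock, TYS1 for tyrosine, GRS1 for glycine and WRS1 for tryptophan rose most among the synthetases, by log2 fold changes of 0.71, 0.58 and 0.57. GUS1 for glutamate fell by 0.68 on the log2 scale and DPS1 by 0.54. TYS1 had 2459, 2991 and 2361 normalized counts after the ramp, 5860, 6342 and 6080 after the shock, and 3965, 3352 and 3870 in the control. Of the 22, 20 were lower after the ramp than after the shock, against 37% of all rows, and DPS1 alone was higher at 0.63 (adjusted p = 0.000357), against 36.3% of all rows. With total counts 21 were lower and none was higher, and DPS1 turned to -0.12 (adjusted p = 0.387).

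**Figure D5:**
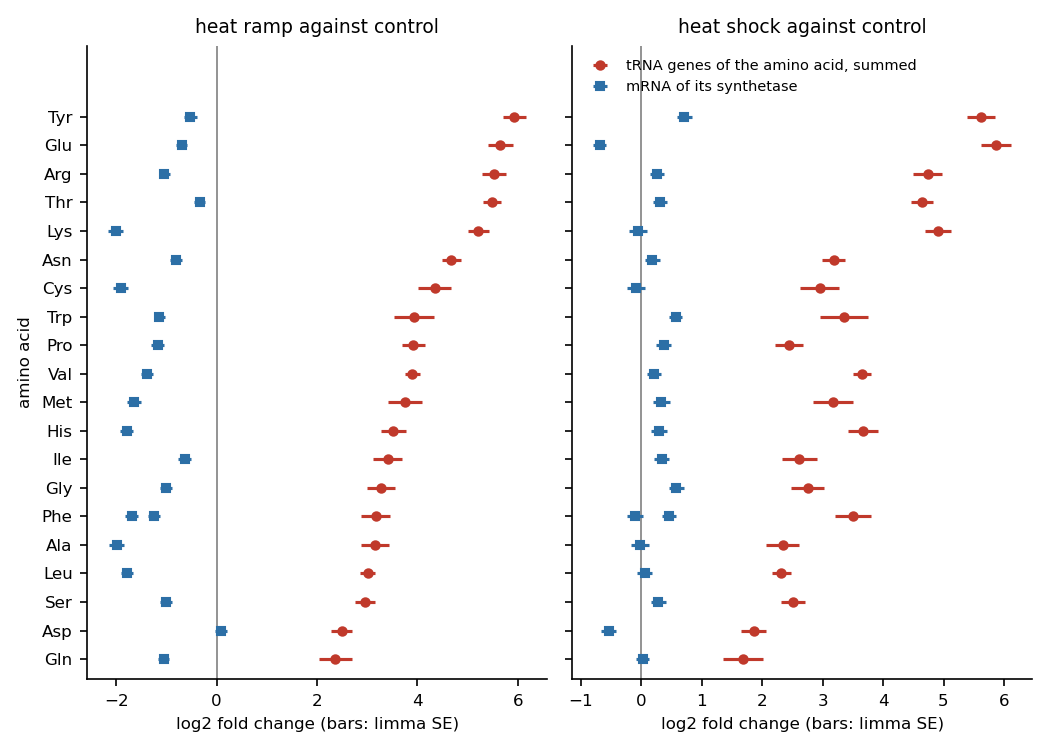
Log2 fold change against control after the heat ramp (left) and the heat shock (right) of the summed tRNA genes of each amino acid (red circles) and of the messenger RNA of its synthetase (blue squares, 2 subunits for phenylalanine), with limma standard errors. All red circles lie between 1.69 and 5.93, whereas the blue squares lie between -2.01 and 0.09 after the ramp and between -0.68 and 0.71 after the shock.

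Genes for tRNA processing, modification, transport and decay were likewise mostly lower after the ramp. Of 34, 28 were lower and 3 were higher after the ramp, with a median of -1.58, against 40.5% of all rows that were lower and 37.4% that were higher. After the shock 8 were lower and 8 higher, with a median of -0.01, and these counts were no larger a share than the 28.2% and 28.1% of all rows. RAT1, MOD5 and TRL1 were the lowest called after the shock, at -1.11, -0.92 and -0.80. TAD2, TRM7 and CCA1 were the highest, at 1.18, 0.79 and 0.57. TRM10, a methyltransferase, was lowest after the ramp at -2.92, followed by GCD10, a subunit of another methyltransferase, at -2.89, and TRM7 at -2.84. TAD2, a subunit of the deaminase that makes inosine in the anticodon, rose most. It had 6461, 7055 and 6628 normalized counts after the ramp, 2442, 1151 and 2152 after the shock, and 778, 837 and 792 in the control. RNY1, an RNase known to cut tRNAs in yeast under stress, had 3734, 3379 and 2823 after the ramp, 592, 568 and 497 after the shock, and 716, 567 and 576 in the control, with log2 fold changes of 2.41 for the ramp (adjusted p = 3.57e-09) and -0.16 for the shock (adjusted p = 0.348). MTR10, an import receptor, was the remaining gene called higher after the ramp with the size factors, at 0.53 (adjusted p = 0.00325), but with total counts it was called lower, at -0.39 (adjusted p = 0.017), where 2 of the list were higher and 32 lower. After the shock, 4 of the list were higher and 9 lower with total counts.

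Of the 10 genes for general factors of RNA polymerase III and its repressor, 6 were lower and 1 was higher after the ramp, with a median of -0.42, against 40.5% of all rows that were lower and 37.4% that were higher. After the shock 8 were lower, against 28.2% of all rows, with none higher in limma, edgeR or DESeq2 and a median of -0.68. TFC3, TFC1 and BDP1 were the lowest after the shock at -1.12, -1.02 and -0.90, and TFC8 was the one that was higher after the ramp, at 0.45. With total counts, all 10 were lower after the ramp. MAF1, the repressor, had 1445, 1504 and 1524 normalized counts after the ramp, 1767, 1888 and 1438 after the shock, and 1624, 1294 and 1483 in the control, and its groups of libraries overlapped. Its log2 fold changes were 0.03 and 0.21, neither of which passed the threshold.

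Other transcripts of RNA polymerase III were also higher after the ramp. Of 10 such rows, 10 were higher after the ramp and 4 after the shock, with none lower in limma, edgeR or DESeq2, and 8 were higher after the ramp under total counts. Among all rows, 37.4% were higher after the ramp and 28.1% after the shock, so that the shock count lies not far above the share of all rows. The snRNA snR6, the snoRNA snR52 and the 5S rRNA rows are also part of the snRNA, snoRNA and nuclear rRNA classes given above. Those classes as a whole had larger mean shares in both heated groups. Whether the rise is particular to transcripts of RNA polymerase III was not tested. RPR1, the RNA of RNase P, which trims the front end of tRNA precursors, had 975, 636 and 1863 normalized counts after the ramp, 217, 128 and 196 after the shock, and 26.9, 10.9 and 18.5 in the control. SCR1, the RNA of the signal recognition particle, had 1677, 2049 and 2079 after the ramp, 1241, 820 and 1003 after the shock, and 350, 126 and 160 in the control. RPR1 was thus higher after the ramp than after the shock by a log2 fold change of 2.57 (adjusted p = 2.15e-05), and SCR1 by 0.94 (adjusted p = 0.00899). The 6 rows of the 5S rRNA are near-identical copies that share reads, and RDN5-1 was the only one of them called after the shock, at 2.74.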

How the data were processed

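Poly(A)+ RNA from 9 samples of 3 BY4742 cultures was sequenced as single-end reads of 50 bases. The authors trimmed reads with Trimmomatic 0.32, aligned them to SacCer3 with Bowtie2 in sensitive local mode and removed unmapped reads. The counting tool, its annotation, its strand setting and its treatment of reads that map to several copies are not given in the sources used here. The deposited signal is a normalized count per row, made by the authors as reads divided by DESeq2 size factors (0.610 to 1.46). Within a tolerance of 0.01, 100% of values were whole multiples of 1 read, so reads were recovered. The tables with the authors' fold changes and p-values were not used.

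Copies were summed by anticodon or amino acid in the whole table. Rows with a mean of at least 10 were tested as log2(value + 1) with limma 3.58.1 (trended prior, group as the only factor, all 9 libraries), with two-sided tests and Benjamini-Hochberg adjustment over all rows at a threshold of 0.05. Fold changes on this scale understate changes of low rows. Alternatives were pseudocounts of 0.1 and 5, no filter, total count scaling, TMM, edgeR 4.0.16 (quasi-likelihood), DESeq2 1.42.0, only the groups compared, no trend, the culture as a block, each library left out, and copies without another gene within 100 bases. Entries for long terminal repeats and Ty elements did not count as genes in the last of these. On the recovered reads, edgeR called 2445 rows higher and 2765 lower for the ramp against control, 1930 and 1881 for the shock against control, and 2370 and 2527 for ramp against shock, of 6671 tested. The study's supplementary text states that each culture gave a sample of every group, which pairs them, while deviations of same-numbered libraries correlated between -0.21 and 0.33. Named groups were the 5 highest and 5 lowest called in each comparison, the 5 highest and lowest by mean, those with 1 copy or an intron, and both methionine kinds. From the other lists, mainly genes among the 3 highest and lowest called were named, not in every comparison, and MAF1. The members and lists were chosen with earlier results of these data known. Sequences and coordinates came from RefSeq R64, the same assembly as SacCer3. The model fit was tested on simulated counts, and Python 3.11.15 and R 4.3.3 were used.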

Additional observations from a re-analysis of the deposited data

Results flagged for a closer look

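Mitochondrial tRNA rows, 24 in number and outside the comparisons above, held few reads but more in the heated libraries. Summed, they had 10.9, 16.8 and 39.3 normalized counts in the heat ramp libraries (7, 12 and 24 reads), 9.82, 9.74 and 20.7 in the heat shock libraries (11, 11 and 23 reads), and 2.83, 6.15 and 0.713 in the control libraries (4, 9 and 1 reads). The means were 22.4 after the ramp and 13.4 after the shock, against 3.23 in the control, and every heated library lay above every control library. As shares of the reads, however, the lowest ramp library, at 3.03e-05%, lay below the highest control library, at 3.3e-05%. The difference was not tested.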

How the results depend on the processing

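Against the control, the summed tRNA genes and all 20 amino acids stayed higher and past the threshold under every alternative run. Between 38 and 41 anticodon groups were higher after the ramp and 38 to 40 after the shock, with none lower. Single copies, run under fewer alternatives, gave 195 to 214 and 201 to 212 higher and none lower. tV(UAC) lost its ramp call with total counts (0.34, adjusted p = 0.153), and edgeR and DESeq2 called tE(CUC) after the shock. Ramp against shock was less stable. Scaling to the total count gave 4 anticodon groups higher and 10 lower (15 and 0 with the size factors), 2 amino acids higher and 4 lower (9 and 0), 17 single copies higher and 38 lower (57 and 2), and a summed log2 fold change of -0.27. It also turned tR(UCU) to -0.034, tD(GUC) and with it aspartate to -0.11, and leucine to -0.053. edgeR, DESeq2, the fit of only the groups compared and the replicate block each called 1 anticodon group lower, and edgeR called 4 copies lower and gave the sum 0.40 (adjusted p = 0.0652). With only the groups compared, the sum kept 0.48 at an adjusted p of 0.0628. The block changed no other count by over 1.5 times. Leaving out 1 library gave 0 to 3 anticodon groups and 0 to 3 amino acids lower, and sums of 0.22 to 0.62, which missed the threshold without ramp replicate 1 (0.43), ramp replicate 3 (0.46) or shock replicate 2 (0.22). The leucine sum was 0.22 (adjusted p = 0.265) with only copies that have no other gene within 100 bases. The causes were not tested, beyond the shift of all rows that total counts bring. Depth limits the groups with fewer than 10 control reads, and the assignment of reads among identical copies limits all values of single copies.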
